A study of Mus musculus with 26 samples.

Results

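The genes described here are the axon guidance ligands and receptors: every row whose symbol starts with Sema, Plxn, Epha, Ephb, Efna, Efnb or Unc5, together with Slit1 to Slit3, Robo1 to Robo4, Ntn1, Ntn3, Ntn4, Dcc, Neo1, Nrp1 and Nrp2. The rule found 72 of the 31977 genes that the count tables share. It caught Unc50, Unc5cl and Plxna4os1 by spelling alone, since they belong to none of the families, which leaves 69 guidance genes: 34 ligands and 35 receptors. Plxna4os1 is an antisense transcript of Plxna4, and because the sources used here do not give the strand setting of the counting, reads of the pair cannot be told apart.

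RNA bound to ribosomes was purified by TRAP (translating ribosome affinity purification) from the dorsal striatum of adult mice and sequenced. All mice carried the Drd2-EGFP/Rpl10a transgene (line CP101, FVB/N-Swiss Webster crossed to C57BL/6), which puts a green-fluorescent tag on the ribosomes of cells that use the Drd2 promoter. These are chiefly medium spiny neurons of the indirect pathway, although striatal cholinergic interneurons also carry the D2 receptor. The 23 immunopurified libraries came from mice that gave themselves cocaine or saline intravenously in long-access sessions: 9 from nonescalating cocaine mice after withdrawal, 5 from saline mice after withdrawal, 2 from escalating cocaine mice, 4 from nonescalating cocaine mice and 3 from saline mice. Another 3 libraries were unpurified input, 1 each from nonescalating, saline withdrawal and saline mice. The sources used here do not give the length of withdrawal. Nothing in the labels says that each library is a separate animal, so p-values describe only the spread among these libraries, which may be technical.

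Guidance cues steer growing axons and migrating cells by attracting or repelling them. Semaphorins act through plexins, with neuropilins as co-receptors for the secreted class. Slits act through Robo receptors, netrins through Dcc, Neo1 and the Unc5 family, and ephrins through Eph receptor tyrosine kinases, where the ephrin-bearing cell can also be signalled to. In the adult brain many of these genes stay on and are known for roles at synapses, and several, such as Ephb4, Efnb2, Robo4 and Nrp1, are also textbook genes of blood vessels.

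The purification enriched the intended cells. Drd2 was at 3034 ± 1600 CPM (counts scaled by TMM-adjusted library size; SD, n = 12) in the immunopurified libraries whose condition has an input, and at 473.2 ± 68.3 CPM (SD, n = 3) in inputs, while Drd1, the receptor of direct-pathway neurons, was at 29.8 ± 13.8 CPM in immunopurified libraries and 287.8 ± 41.1 CPM in inputs. Of 10 indirect-pathway markers tested, 8 were called higher in immunopurified libraries, and 6 of 8 direct-pathway, 6 of 8 astrocyte and 8 of 9 oligodendrocyte markers were called lower. All 5 markers of cholinergic interneurons had a negative log2 fold change and 2 were called lower. Their summed level was 10.5 to 74.1 CPM in the 12 immunopurified libraries and 120.3 to 234.4 CPM in the inputs. Endothelial and mural markers (cells of vessel walls) went the other way: 13 of 13 had a positive log2 fold change and 5 were called higher, and their summed level was 316.9 to 10491 CPM in the 12 immunopurified libraries against 136.3 to 690.7 CPM in the inputs. Of that list Tie1 and Emcn were at 0 in the nonescalating input and Acta2 in the saline input, and none of the 13 was at 0 in these 12 immunopurified libraries. Gene counts ran from 3279457 to 19122303 per immunopurified library and were 11549493, 5016587 and 5990977 in the nonescalating, saline withdrawal and saline inputs. Between 21.2% and 70.7% of uniquely aligned reads fell outside genes in immunopurified libraries, and between 27.3% and 31.6% in inputs. Reads ambiguous between genes made up 0.942% to 2.85% of them in immunopurified libraries and 8.61% to 12.8% in inputs. The latter ranges do not overlap, and their part in the comparison with inputs was not tested. The share outside genes was above 50% in 5 libraries. In set A these were replicates 1 and 2 of saline withdrawal and replicate 1 of nonescalating withdrawal. In set B they were replicates 3 and 4 of nonescalating withdrawal. A set is a run of library numbers in the titles, taking the copied number where a title calls the library a copy. Immunopurified libraries had 3578445 to 5849243 gene counts in set B and 6564551 to 19122303 in set A. The exception was saline withdrawal replicate 2 of set A, with 3279457 counts and the 32531 listed genes of set B. The rest of set A lists 32657 genes, so set goes with annotation and depth.

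The promoters of a Slit ligand and of a Robo receptor are shown because these genes of 1 pathway moved in opposite directions with the share of reads outside genes, as described further on. They were chosen after their values were seen. Each runs from 250 bases before to 50 bases after the RefSeq gene start (GRCm38.p6, plus strand, chr11:35121206-35121505 for Slit3 and chr9:37401722-37402021 for Robo4), and capitals mark the dinucleotide CG, which reads the same on both strands.
Slit3: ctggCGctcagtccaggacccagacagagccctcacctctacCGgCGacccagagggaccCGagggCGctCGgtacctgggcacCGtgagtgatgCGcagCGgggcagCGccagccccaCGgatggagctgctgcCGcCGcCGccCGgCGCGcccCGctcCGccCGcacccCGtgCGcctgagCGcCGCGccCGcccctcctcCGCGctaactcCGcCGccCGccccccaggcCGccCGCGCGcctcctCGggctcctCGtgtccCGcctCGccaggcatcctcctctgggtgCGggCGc
Robo4: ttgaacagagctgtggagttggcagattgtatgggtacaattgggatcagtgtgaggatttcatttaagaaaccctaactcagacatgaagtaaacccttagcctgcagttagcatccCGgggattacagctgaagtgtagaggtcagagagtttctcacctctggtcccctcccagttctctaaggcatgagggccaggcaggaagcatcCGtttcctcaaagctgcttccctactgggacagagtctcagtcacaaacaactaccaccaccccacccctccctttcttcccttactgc
The Slit3 window holds 41 CG, a number that 3.35% of 27025 mouse promoters of this length reach or pass. The Robo4 window holds 2 CG, and 23.8% of promoters hold as few or fewer. RefSeq promoters were matched for 61 of the 72 members, with a median of 23 CG against 7 over all promoters. The median was 23.5 CG in members that fell with the share, 19.5 in those that rose and 23 in those not called. The gap between the 2 printed windows is thus far wider than that between the classes.

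Compared per exon length, a membrane-anchored semaphorin and neuronal Eph and ephrin genes led the group in immunopurified libraries. Sema7a, a lipid-anchored semaphorin that binds plexin C1 and integrins, had the highest mean level, 41.4 ± 17.1 CPM per kilobase of exon (SD, n = 23). Epha4, a receptor for both classes of ephrin, followed with 33.3 ± 8.99, and Efnb3, an ephrin of neurons, with 32.1 ± 14.6. Plxnd1, the plexin that binds Sema3e, averaged 25.2 ± 10.2, and Unc5a, a repulsive netrin receptor, 23.1 ± 15.3. Slit3 averaged 22.4 ± 14.3, Efnb2 20.9 ± 6.40 and Plxna2, a receptor for class 6 semaphorins, 18.2 ± 4.45 CPM per kilobase. Neighbours in this order differ by less than their SD. At the other end, Efna4 was at 0 in 20 of 23 immunopurified libraries and Unc5cl in 22, and these and Sema3b were too low to test.

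**Figure D1:**
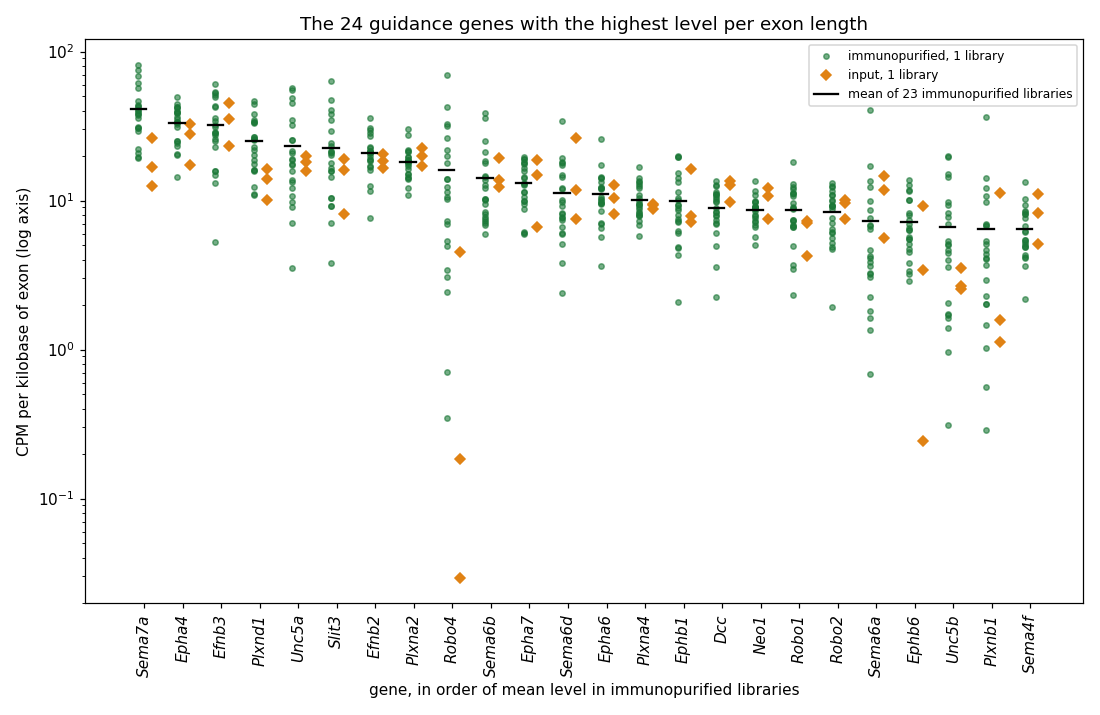
Level per exon length (CPM per kilobase of exon, log axis) of the 24 guidance genes with the highest mean in immunopurified libraries, without the genes caught by spelling alone. Green circles are the 23 immunopurified libraries, black lines their mean and orange diamonds the 3 inputs. Sema7a lies highest with a mean of 41.4, and the circles of Robo4 spread from 0.35 to 69.8.

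Summed by family, the 13 membrane-bound semaphorins held 97.7 ± 28.9 CPM per kilobase in immunopurified libraries, the 9 plexins 73.8 ± 22.8, the 9 EphA receptors 63.3 ± 13.01 and the 3 ephrin-Bs 55.0 ± 19.1 (SD, n = 23). The 4 Unc5 receptors held 34.4 ± 13.8, the 4 Robo receptors 33.4 ± 11.5 and the 3 Slits 23.4 ± 14.3 CPM per kilobase, and Slit3 made up nearly all of the Slit sum. Netrins were the lowest family with the neuropilins, at 6.08 ± 4.46 and 6.47 ± 5.16 CPM per kilobase. The receptors of netrins were present at a higher summed level per length than the netrin genes counted here, with 17.5 ± 4.30 CPM per kilobase for Dcc and Neo1 together.

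Immunopurified libraries were then set against inputs, the comparison that asks which transcripts were higher or lower in immunopurified RNA than in the whole tissue. Whether each transcript was bound to tagged ribosomes was not tested. Sema7a, Plxnd1, Ephb4 and Epha2 were higher in immunopurified libraries and Sema4d and Epha5 were lower. These are 6 of 69 members tested by edgeR's quasi-likelihood F test with Benjamini-Hochberg adjustment over 15610 genes, of which 7.38% were called (3.58% higher and 3.8% lower), so the members were called about as often as genes in general. Their median log2 fold change was 0.18 against 0.16 over all genes, with 39 of 69 positive. At an unadjusted p under 0.05 the counts were 22 members and 26.3% of all genes. In bulk RNA, fewer cells of a type and less RNA per cell cannot be told apart.

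Among ligands, Sema7a (chromosome 9, 57940112 to 57962865 of GRCm38) ran from 101.3 to 269.7 CPM with a median of 136.2 in the 12 immunopurified libraries, against 86.6, 41.1 and 55.0 CPM in the nonescalating, saline withdrawal and saline inputs. Every immunopurified library lay above every input. The log2 fold change was 1.22 ± 0.21 (SE, adjusted p = 0.0034 by edgeR), and within set A and set B the log2 ratio of means was 1.30 and 1.41. Sema4d, the ligand of plexin B1 and a gene known from oligodendrocytes (chromosome 13, 51685529 to 51793747), ran from 8.36 to 25.7 CPM with a median of 14.04 in immunopurified libraries, against 58.5, 57.5 and 33.9 CPM in the same inputs. Here every immunopurified library lay below every input, by a log2 fold change of -1.68 ± 0.33 (SE, adjusted p = 0.0072 by edgeR). The oligodendrocyte markers summed to 108.1 to 357.3 CPM in immunopurified libraries and 1581 to 2273 CPM in inputs, and their part in the Sema4d result was not tested.

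Other ligands did not pass the test. Slit2 stayed between 1.28 and 15.997 CPM in immunopurified libraries, against 26.5, 19.6 and 29.0 CPM in the inputs, a log2 fold change of -1.50 ± 0.53 (SE, adjusted p = 0.093 by edgeR). Slit3 had a log2 fold change of 0.52 with a 95% interval of -0.23 to 1.27. No ephrin was called among 7 tested, and no netrin among 3. Ntn4, a laminin-related netrin of basement membranes, ran from 0 to 27.4 CPM with a median of 6.74 in immunopurified libraries, against 0, 2.51 and 0.467 CPM in the inputs. Its log2 fold change was 3.70 ± 1.55 (SE, adjusted p = 0.146 by edgeR).

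Among receptors, Plxnd1 (chromosome 6, 115954811 to 115995005) ran from 116.0 to 276.0 CPM with a median of 188.3 in immunopurified libraries, against 118.5, 73.7 and 102.3 CPM in the nonescalating, saline withdrawal and saline inputs. All but 1 immunopurified library lay above the highest input. Its log2 fold change was 0.90 ± 0.20 (SE, adjusted p = 0.0132), with a log2 ratio of means of 0.90 within set A and 0.78 within set B. Epha5, an ephrin-A receptor of neurons (chromosome 5, 84054761 to 84417382), ran from 14.9 to 31.6 CPM in immunopurified libraries, against 63.3, 29.7 and 58.4 CPM in the same inputs. The groups overlapped, because the saline withdrawal input lay among the immunopurified libraries. The log2 fold change was -0.97 ± 0.28 (SE, adjusted p = 0.0486), with a log2 ratio of means of -1.38 within set A and -0.19 within set B.

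The other 2 called receptors were nearly missing from the inputs. Ephb4, the receptor of ephrin-B2 and a marker of mouse venous endothelium (chromosome 5, 137350109 to 137378669), ran from 2.17 to 89.2 CPM with a median of 17.7 in immunopurified libraries, against 0.177, 0 and 1.71 CPM in the inputs. It lay above every input in each of the 12 libraries, but over a wide range. The log2 fold change was 5.03 ± 1.17 (SE, adjusted p = 0.0183), and the ratio of summed counts per library size was 56.0 with a 95% interval of 32.7 to 105.2, which covers counting error only (3297 and 13 counts). Epha2, an ephrin-A receptor best known from epithelia and vessels (chromosome 4, 141301240 to 141329384), was at 0 to 24.2 CPM with a median of 6.92 in immunopurified libraries, against 0, 0 and 0.311 CPM in the inputs. One immunopurified library, nonescalating replicate 2, was also at 0. The fitted log2 fold change was 5.87 ± 1.53 (SE, adjusted p = 0.0311), and since the inputs hold 2 counts in all, the ratio of summed counts was 102.5 with a counting interval of 28.3 to 847.5. Epha1 had no count in any input. With the floor of 3 counts over the 3 inputs, its mean over the 12 immunopurified libraries was at least 44.4-fold higher. Single libraries ran from 0 to 27.6 CPM with a median of 3.45, and 2 of the 12 were at 0. Epha1 did not pass the test (adjusted p = 0.078 by edgeR). Ephb4 and Epha2 moved with the endothelial and mural markers given above, whose part in these results was not tested.

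**Figure D2:**
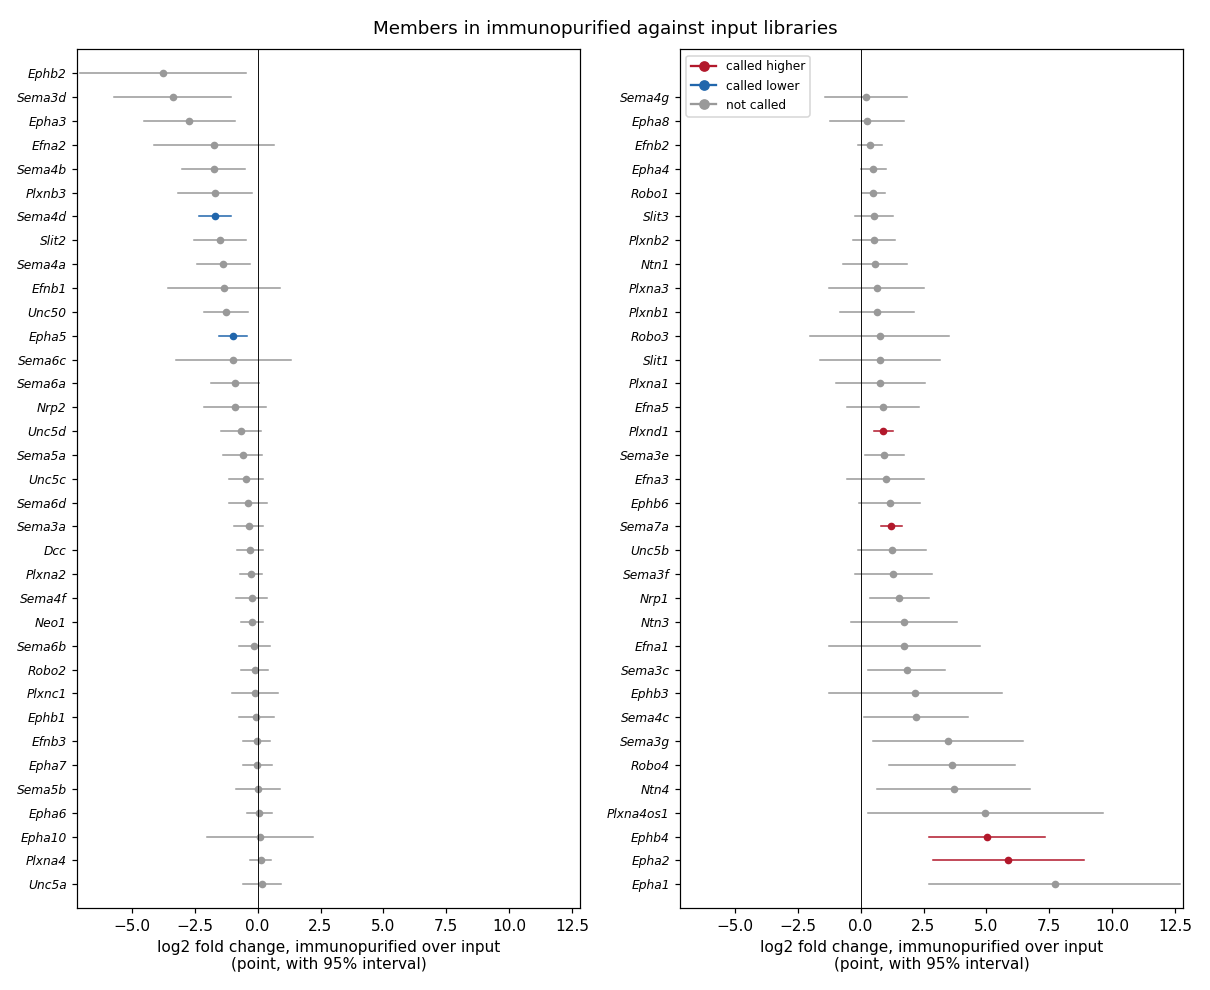
Log2 fold change, immunopurified over input, of the 69 members tested, with 95% intervals, in order of size (left column, then right). Red marks members called higher, blue those called lower and grey those not called. The 4 red points run from 0.90 (Plxnd1) to 5.87 (Epha2), and the 2 blue points are -1.68 (Sema4d) and -0.97 (Epha5).

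The inputs carry this comparison, since there are 3 of them, 1 per condition. Without the nonescalating input 1 member was still called, Sema7a (adjusted p = 0.0290). Epha5 lost its call in 14 of the 15 fits that left out 1 library, Epha2 in 4, and Ephb4, Plxnd1 and Sema4d in 2 each. With limma voom in place of edgeR the adjusted p was 0.134 for Ephb4 and 0.124 for Epha2. With the share of reads outside genes as a covariate, 14 members were called instead of 6, and calls over all genes rose too.

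Robo1, Robo2, Dcc, Unc5a, Efnb3 and Epha4 did not pass the test between immunopurified libraries and inputs. All are known from neurons, but their cell type was not tested here. Robo1 ran from 38.4 to 203.7 CPM in immunopurified libraries, against 120.5, 70.3 and 116.8 CPM in the nonescalating, saline withdrawal and saline inputs. Its log2 fold change was 0.51 with a 95% interval of 0.04 to 0.98 (adjusted p = 0.190 by edgeR). Epha4 ran from 115.3 to 401.0 CPM, against 140.0, 261.3 and 225.3 CPM in the inputs, a log2 fold change of 0.50 ± 0.25 (SE, adjusted p = 0.222 by edgeR). For both genes the inputs lay inside the range of the immunopurified libraries.

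Cytoplasmic partners of guidance receptors were described by a list. Of 38 genes of guidance receptor signalling, none was called higher and 3 were lower: Pak1, a kinase downstream of Rac, by a log2 fold change of -0.97 ± 0.19 (SE, adjusted p = 0.0086 by edgeR), and Pak3 and Dpysl3 by -0.86 and -1.57. Their median was -0.01. Of 22 other cues and co-receptors tested, none was called higher and 4 were lower: Cntn2, Vegfa, Nrcam and Dscam, by -1.75, -1.56, -0.92 and -1.91. The median of that list was -0.48.

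Within the immunopurified libraries, the guidance genes split along the share of reads outside genes. In a fit with group and library set as terms, 44 of 69 members were called for a slope on that share, 18 rising and 26 falling, where 47.8% of 16908 genes were called (25.1% rising and 22.8% falling). At an unadjusted p under 0.05 the counts were 45 members and 54.3% of all genes. Slopes are log2 changes per 10 percentage points. Slit3, Robo1, Robo2, Dcc, Unc5a, Efnb3 and Epha4 fell, and Robo4, Ephb4, Nrp1, Nrp2, Sema3c, Sema3g, Ntn4 and Unc5b rose. All 13 endothelial and mural markers rose as well, with a median slope of 0.98, and 8 of 10 indirect-pathway markers fell and 1 rose, with a median of -0.53. Among the vessel genes named earlier, Robo4, Ephb4 and Nrp1 rose but Efnb2 fell. What share of a slope goes with the endothelial and mural or the indirect-pathway markers was not tested.

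The Slit and Robo genes show this in full. Slit3 (chromosome 11, 35121224 to 35708507) ran from 23.1 to 382.7 CPM with a median of 121.9 over the 23 libraries, and its slope was -0.65 ± 0.06 (SE, adjusted p = 5.72e-08 by edgeR), the lowest p of any member. It was at 23.1 CPM in the library with 70.7% of reads outside genes and at 178.6 CPM in the library with 21.2%. Robo1 and Robo2, Slit receptors known from neurons, fell by 0.48 ± 0.06 and 0.41 ± 0.05 (SE). Robo4, the Robo of endothelial cells (chromosome 9, 37401897 to 37415115), rose by 0.9998 ± 0.15 (SE, adjusted p = 7.37e-06) and stood at 370.2 CPM in the library where Slit3 was lowest. At the other end it was at 18.2 CPM. Robo3 had a slope of 0.08 and Slit2 of 0.07, and neither was called.

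Netrin receptors split the same way. Unc5a fell by 0.58 ± 0.08, Dcc by 0.41 ± 0.06 and Unc5c by 0.34 ± 0.08 (SE), while Unc5b, the Unc5 receptor of vessels, rose by 0.81 ± 0.16 (SE, adjusted p = 0.00019). Ntn4 rose by 1.16 ± 0.28 (SE). Both neuropilins, co-receptors for class 3 semaphorins and for VEGF, rose: Nrp1 by 0.79 ± 0.11 and Nrp2 by 0.60 ± 0.15 (SE). Nrp1 was at 122.0 CPM in the library with the highest share and at 6.65 CPM in that with the lowest.

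Among semaphorins, Sema3c and Sema3g, both ligands of neuropilins, rose by 0.98 ± 0.13 and 1.20 ± 0.30 (SE), and Sema3a, Sema3e and Sema3f fell by 0.45, 0.36 and 0.49. The membrane-bound Sema6a and Sema6d rose by 0.81 ± 0.09 and 0.53 ± 0.07 (SE), and Sema6b fell by 0.34. Sema7a rose by 0.16 ± 0.06 (SE, adjusted p = 0.0264). Of 9 plexins, Plxnb1 and Plxna1 rose by 0.90 and 0.56, Plxnd1 fell by 0.19 and the other 6 were not called. The remaining called members were Sema4c, which rose by 0.61, and Sema4a, Sema4f, Sema5b, Unc5d and Neo1, which fell by 0.20 to 0.46. With 1 library left out, Sema5b lost its call in 7 of 23 fits, Unc5d in 6 (adjusted p up to 0.167), Sema7a in 3, and Sema4a, Sema4c and Sema4f in 1 each. The slope of Sema4a ran from -0.70 to -0.34 in those fits, and its call was lost without saline withdrawal replicate 2 of set B. That of Sema4c was lost without nonescalating withdrawal replicate 1 of set A, and that of Sema4f without nonescalating withdrawal replicate 4 of set B.

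In the Eph family Ephb4, Ephb3, Epha1 and Epha2 rose, by 0.99 to 1.82, and Epha4, Epha6, Epha7, Ephb1 and Ephb6 fell, by 0.30 to 0.47. Among their ligands Efnb2 and Efnb3 fell by 0.26 and 0.52, Efna2, Efna3 and Efna5 fell by 0.72, 0.33 and 0.33, and Efna1 rose by 1.26. The Efna2 slope lost its call in 10 of the 23 fits that left out 1 library (slope -0.88 to -0.56, adjusted p up to 0.0962), and that of Efna3 in 4. Ephb4 reached 107.7 CPM in nonescalating withdrawal replicate 1 of set A, a library with 60.7% of reads outside genes, against 1.15 CPM in nonescalating withdrawal replicate 5 of set B with 32.3%.

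**Figure D3:**
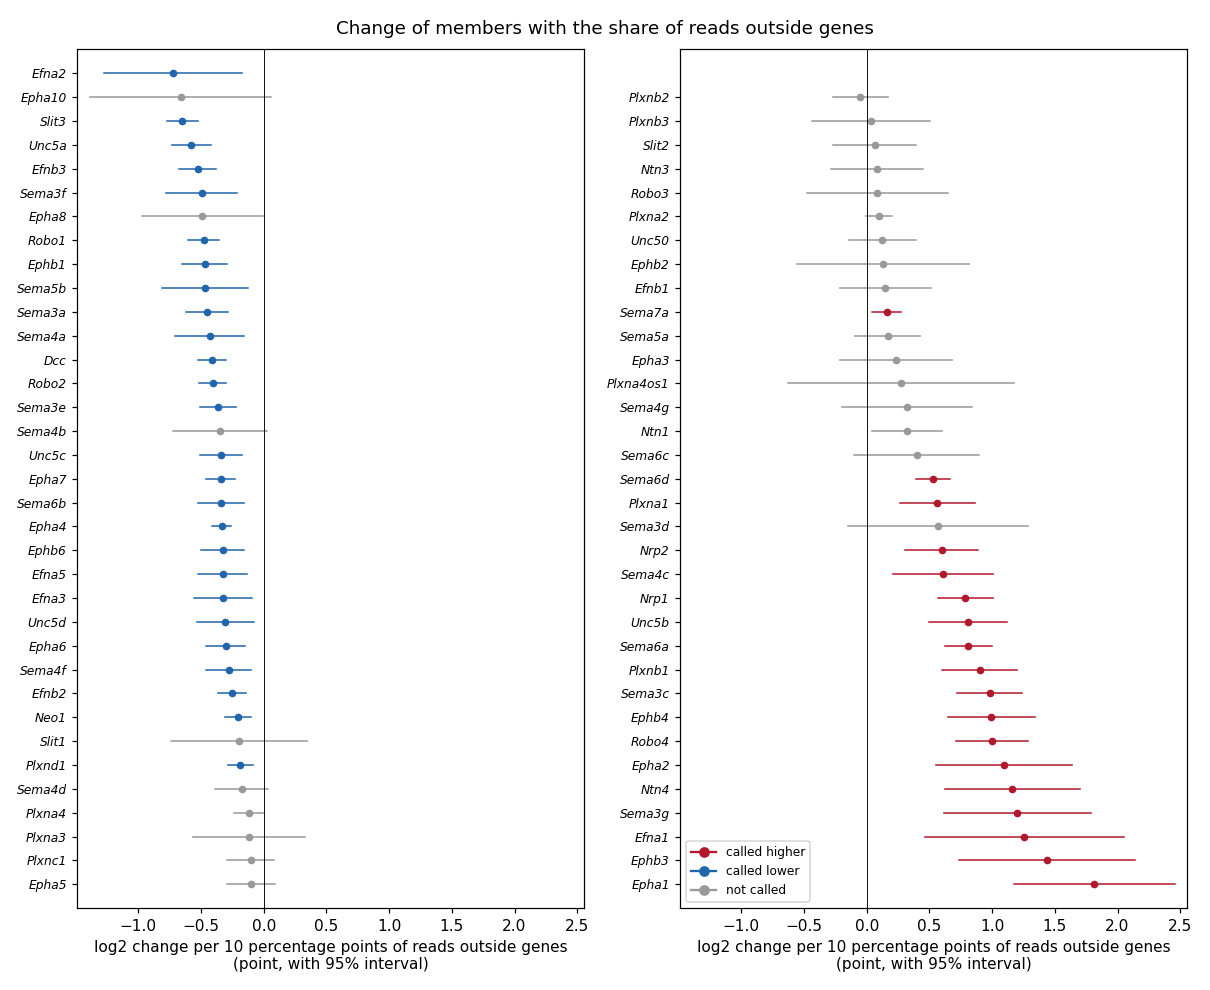
Slope of the 69 members tested on the share of reads outside genes (log2 change per 10 percentage points, 23 immunopurified libraries), with 95% intervals, in order of size (left column, then right). Red marks the 18 members called rising, blue the 26 called falling and grey those not called. The falling slopes lie between -0.72 and -0.19 and the rising ones between 0.16 and 1.82.

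**Figure D4:**
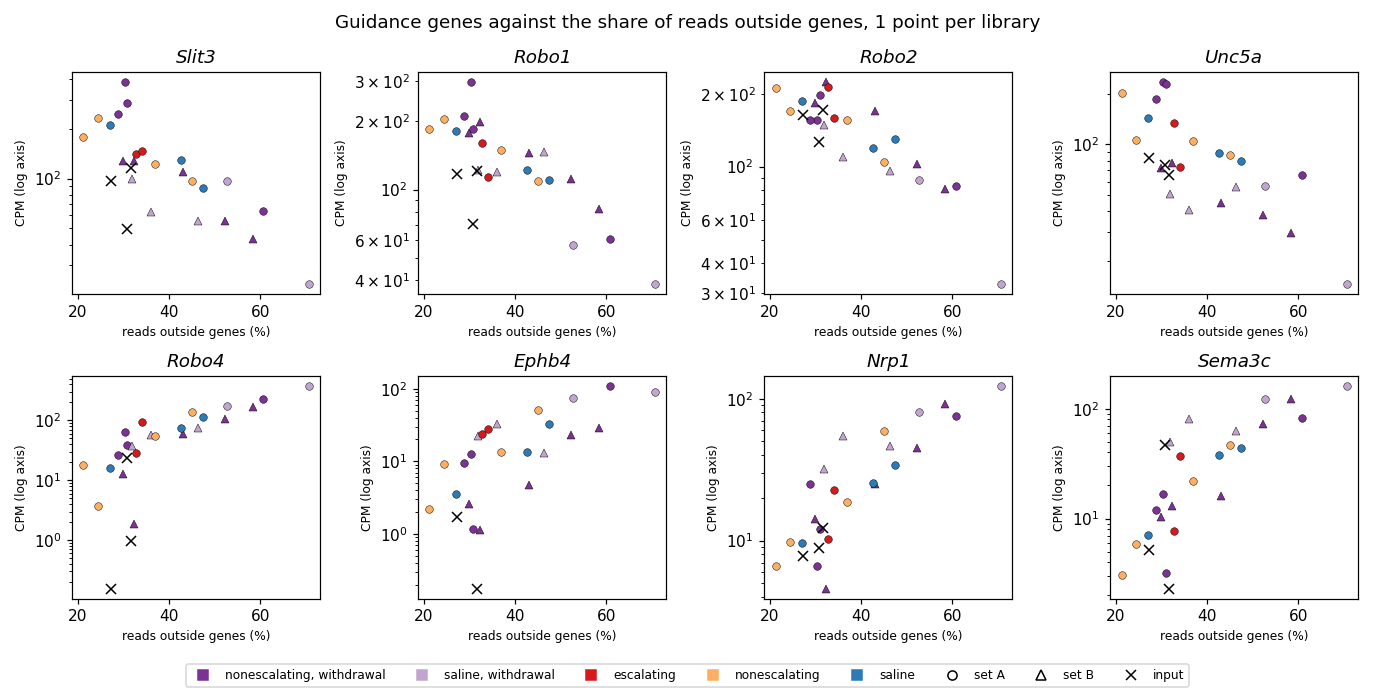
CPM (log axis) of 8 members against the share of reads outside genes, 1 point per library, with colour for the group, circles for set A, triangles for set B and crosses for the 3 inputs; the input at 0 for Ephb4 is not drawn. The members in the upper row go down and those in the lower row go up towards the library at 70.7%.

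The members that fell spanned more of the genome per gene than those that rose. Their genomic span had a median of 151.1 kb over 26 genes, against 28.4 kb over the 18 that rose and 39.7 kb over the 25 not called. Longer than 100 kb were 15 of 26 falling genes, 6 of 18 rising genes and 12 of 25 genes not called. Exon length differed less, with medians of 6.93 kb in falling, 5.78 kb in rising and 7.68 kb in genes not called. Spans were not worked out over all genes. These spans are a description of members sorted by their slope, and no test was made.

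Fits within 1 set or without the 5 libraries above 50% called fewer slopes. Of the 44 members, 29 were still called in set A alone, with all 44 in the same direction, and 11 in set B alone, with all 42 tested in the same direction. Without the 5 libraries 16 of the 44 were still called and 43 kept their direction. Over all genes tested 31.1%, 10% and 12% were called in these 3 fits, against 42.6%, 17.5% and 25% of the members tested. When 1 library was left out at a time, 38 to 47 members were called, and 42.6% to 49.1% of all genes tested. Slit3 had a slope of -0.68 in set A, -0.52 in set B and -0.48 without those 5 libraries. Robo4 had 1.08, 1.46 and 1.46 in the same fits. Sema7a lost its call in all of them and had a slope of -0.02 without the 5 libraries. The wider pathway moved in both directions too: of 38 genes of receptor signalling 6 rose and 19 fell, and of 23 other cues and co-receptors tested 2 rose and 12 fell.

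The cocaine and withdrawal groups were compared in 1 joint fit of the 23 immunopurified libraries, 16908 genes, with the library set as a term. No member was called in any of the 6 comparisons of groups or in the interaction of cocaine with withdrawal, and no gene was (0% of 16908 by edgeR's quasi-likelihood F test). DESeq2 and limma voom also called no member, and DESeq2 called 1 to 12 of all genes. At an unadjusted p under 0.05 there were 5 members of 69 for nonescalating withdrawal against saline withdrawal, where 5.21% of all genes passed. The other counts were 1 for escalating against nonescalating (3.3% of genes), 2 for escalating against saline (3.06%), 2 for nonescalating against saline (2.11%), 4 for nonescalating withdrawal against nonescalating (4.51%), 3 for saline withdrawal against saline (5.23%) and 1 for the interaction (2.03%). The comparisons share libraries, so they are not independent of each other. What follows is given as values of the members with the lowest p in each comparison.

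In withdrawal, nonescalating cocaine mice were set against saline mice (9 libraries against 5). Sema7a ran from 63.5 to 246.6 CPM with a median of 96.2 in nonescalating withdrawal libraries, against 269.7, 226.4, 123.8, 101.3 and 103.4 CPM in saline withdrawal libraries. The groups overlapped: 4 of the 9 nonescalating withdrawal values lay between the lowest and the highest saline withdrawal value. The log2 fold change was -0.57 ± 0.22 (SE, adjusted p = 0.749), with a log2 fold change of -0.70 in set A alone and -0.46 in set B alone. Sema6d and Nrp2 had log2 fold changes of -0.84 and -1.06.

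Epha6, an ephrin-A receptor of neurons, ran from 37.0 to 136.2 CPM with a median of 63.3 in nonescalating withdrawal libraries, against 19.3, 30.1, 34.7, 51.2 and 52.9 CPM in saline withdrawal libraries. The log2 fold change was 0.82 ± 0.31 (SE, adjusted p = 0.749), and it was 1.60 in set A alone and 0.33 in set B alone. Robo2 ran from 80.5 to 223.5 CPM with a median of 155.7 in nonescalating withdrawal libraries, against 32.7, 88.4, 109.9, 148.2 and 95.5 CPM in saline withdrawal libraries. Robo2 and Robo1 had log2 fold changes of 0.73 ± 0.31 and 0.82 ± 0.37 (SE). For Robo1 it was 2.01 in set A alone and 0.11 in set B alone. The saline withdrawal libraries of set A are replicate 1 and replicate 2, which has the annotation of set B and 3279457 gene counts. They had 70.7% and 52.7% of reads outside genes. The nonescalating withdrawal libraries of set A had 60.7%, 30.4%, 28.7% and 30.9%. Epha6, Robo1 and Robo2 fell with this share, and its part in the set A values was not tested.

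The groups also differed in other measures. The share of reads outside genes was 40.7 ± 13.2% in nonescalating withdrawal and 47.5 ± 15.3% in saline withdrawal libraries (SD, n = 9 and 5; exact permutation test, two-sided p = 0.394). Endothelial and mural markers summed to 103.0 to 6659 CPM with a median of 1070 in nonescalating withdrawal libraries and to 1466 to 10491 CPM with a median of 3032 in saline withdrawal libraries, and all 13 had a negative log2 fold change with none called. With the share as a covariate the log2 fold change was 0.43 for Robo1, 0.46 for Robo2, 0.59 for Epha6 and -0.49 for Sema7a. Each kept its sign but was smaller in size than without the covariate, most of all that of Robo1. Without the 5 libraries above 50% the values were 0.40, 0.69, 0.61 and -0.72 for the same genes. That fit holds no saline withdrawal library of set A, since both are among the 5.

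Before withdrawal, escalating mice were set against nonescalating and saline mice, with 2 escalating libraries. Ntn3, a netrin, was at 0.904 and 1.05 CPM in escalating libraries, against 3.33, 7.42, 5.56 and 3.33 CPM in nonescalating and 3.66, 9.04 and 9.54 CPM in saline libraries. The escalating libraries lay below all others of both groups. The log2 fold change was -2.31 ± 0.998 against nonescalating and -2.90 ± 1.05 against saline (SE, adjusted p = 1 in both by edgeR). Sema4g was at 1.23 and 0.315 CPM in escalating libraries, against 1.31, 4.09, 5.29 and 10.3 CPM in nonescalating and 11.6, 7.39 and 1.94 CPM in saline libraries. Efna1 rested on 2 counts in the 2 escalating libraries, against 73 in the saline libraries. It was at 0 and 0.105 CPM in escalating and at 0.255, 1.33 and 4.86 CPM in saline libraries. In nonescalating libraries it ran from 0 to 4.87 CPM, with 2 of 4 at 0. The log2 fold change against saline was -4.99 ± 2.44 (SE) and was not called. The ratio of summed counts per library size, escalating over saline, was 0.025 with a counting interval of 0.0029 to 0.093. That interval leaves out the spread among libraries. On the other side, Unc5d had a log2 fold change of 0.71 ± 0.56 against nonescalating mice (SE, adjusted p = 1 by edgeR), with the escalating libraries at 46.9 and 18.2 CPM, against 17.0, 10.5, 18.5 and 32.8 CPM in nonescalating libraries. Without escalating replicate 1 the value was -0.11. The share of reads outside genes was 33.4 ± 0.883% in escalating, 31.9 ± 11.1% in nonescalating and 39.0 ± 10.7% in saline libraries (SD, n = 2, 4 and 3). The endothelial and mural markers summed to 993.0 and 2112 CPM in escalating libraries, to 338.3 to 5486 CPM in nonescalating libraries and to 316.9 to 4183 CPM in saline libraries. Of the 13 markers 11 had a negative log2 fold change against nonescalating mice and 12 against saline mice, with none called, and their part in the values above was not tested. With the share as a covariate the log2 fold change of Ntn3 was -2.33 against nonescalating and -2.87 against saline mice.

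Nonescalating mice against saline mice, without withdrawal, gave Efnb1, an ephrin whose gene is on the X chromosome, as the member with the lowest p. It was at 1.81, 0.512, 4.03 and 3.96 CPM in nonescalating libraries and at 10.98, 9.68 and 4.06 CPM in saline libraries. All 4 nonescalating values lay below the 3 saline values, although the highest and the lowest of them nearly met, and the log2 fold change was -1.65 ± 0.71 (SE, adjusted p = 1 by edgeR). Sema4c, a ligand of plexin B2, was at 1.31, 0.128, 5.01 and 6.77 CPM in nonescalating libraries, against 19.9, 3.69 and 18.8 CPM in saline libraries. Efna3, Ephb6 and Plxnc1 had the lowest p among members with a positive log2 fold change, which was 0.69 for Efna3. Of the 13 endothelial and mural markers 11 had a negative log2 fold change here, with none called.

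Time after cocaine and after saline was compared within each treatment. In nonescalating mice, Efnb1 ran from 1.61 to 11.7 CPM with a median of 8.56 in withdrawal libraries, against the 0.512 to 4.03 CPM without withdrawal, a log2 fold change of 1.91 ± 0.66 (SE, adjusted p = 0.926). Efnb2, the ligand of Ephb4 and of other EphB receptors, ran from 79.3 to 209.4 CPM with a median of 143.3 in nonescalating withdrawal libraries, against 157.9, 244.8, 145.9 and 154.2 CPM in nonescalating libraries, a log2 fold change of -0.70 ± 0.28 (SE, adjusted p = 0.926). In saline mice Efnb2 was at 52.2, 86.4, 116.2, 135.9 and 204.2 CPM after withdrawal, against 125.9, 195.8 and 142.4 CPM without it, a log2 fold change of -0.81 ± 0.35 (SE, adjusted p = 0.782). The Efnb2 values of the groups overlapped in both treatments. The share of reads outside genes, with which Efnb2 fell, was 40.7% in nonescalating withdrawal against 31.9% in nonescalating libraries, and 47.5% in saline withdrawal against 39.0% in saline libraries. Of the 13 endothelial and mural markers 12 had a positive log2 fold change in nonescalating mice (median 0.53) and all 13 in saline mice (median 1.43), with none called. With the share as a covariate the Efnb2 log2 fold change was -0.46 in nonescalating mice and -0.54 in saline mice, and the part of the markers was not tested. Withdrawal and library set are partly confounded, because every set B library is a withdrawal library.

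The interaction, the withdrawal difference of nonescalating and saline mice minus their difference without withdrawal, was 1.17 ± 0.51 for Epha6 and -0.77 ± 0.37 for Sema7a on the log2 scale (SE, adjusted p = 1 for both by edgeR). For Epha6 the group means were 65.4 CPM in nonescalating withdrawal, 37.7 CPM in saline withdrawal, 55.2 CPM in nonescalating and 70.3 CPM in saline libraries. The 95% interval for Epha6 was 0.18 to 2.16 before any adjustment. The 2 other guidance lists had no called gene in any of these comparisons.

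**Figure D5:**
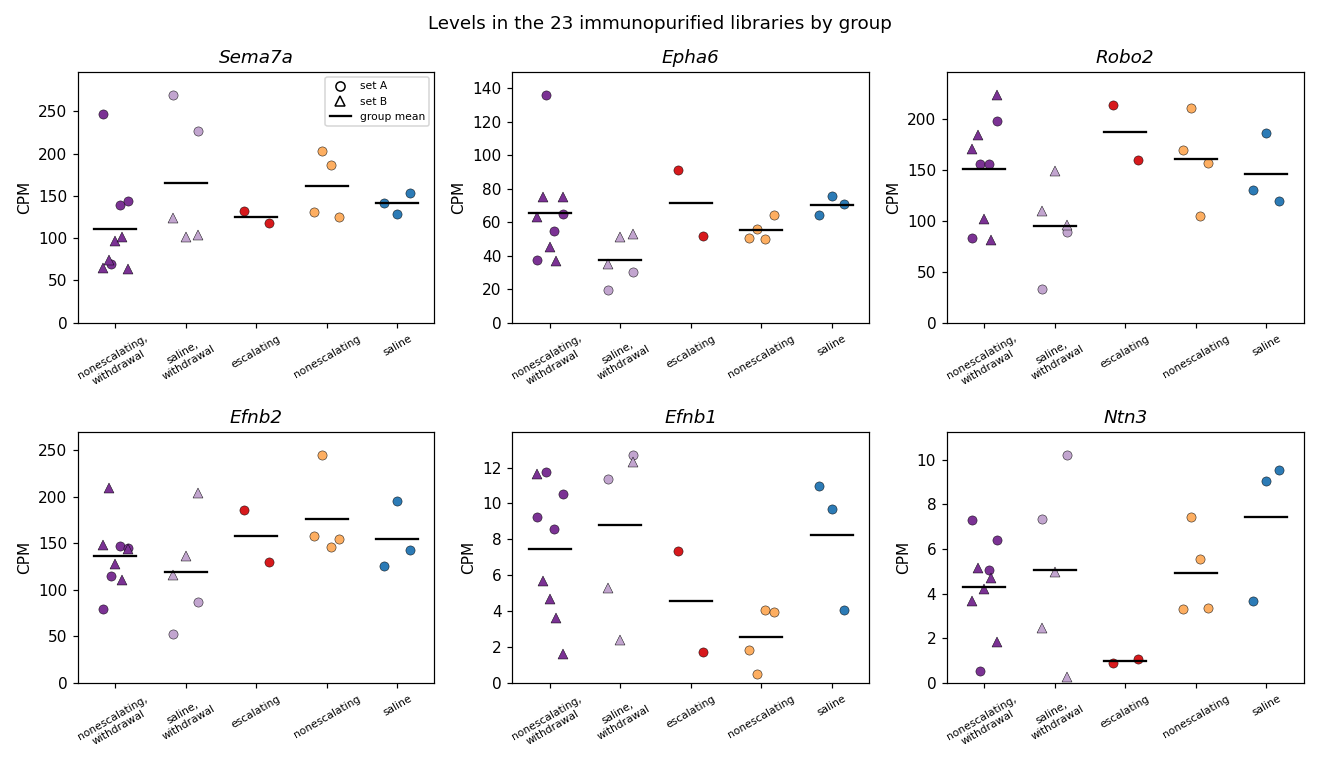
CPM of 6 members in the 23 immunopurified libraries by group, 1 point per library (circles set A, triangles set B), with the group mean as a black line. None of the members was called in any comparison of groups. Ntn3 is near 1 CPM in both escalating libraries, and the highest nonescalating value of Efnb1 is 4.03 CPM.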

How the data were processed

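The authors deposited 1 table of read counts per library, with gene symbols as rows, made with STAR 2.0.0e on mm10 and HTSeq, per the submitters' processing notes. The sources used here give no annotation release, strand setting or filter. Tables follow 2 annotations (10 list 32531 genes and 16 list 32657). Joining 31735 shared symbols and 242 renamed ones left 31977 genes with 99.5% to 99.9% of each library's gene counts. Reads outside genes are unique alignments given to no feature. In set A all titles but that of saline withdrawal replicate 2 call the library a copy of another number, in words whose meaning is not stated. Of 56 same-group pairs of libraries none was identical (chi-square per degree of freedom 11.8 to 265.0).

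Counts were tested with edgeR 4.0.16 in R 4.3.3: TMM factors, filterByExpr (minimum count 10) and quasi-likelihood F tests, with a Benjamini-Hochberg adjusted p under 0.05 over all genes tested as a call. Immunopurified libraries were set against inputs in a model of condition and library set (15 libraries, 10 residual degrees of freedom). The 23 immunopurified libraries were fitted jointly by group and library set (17 residual degrees of freedom), and again with the share of reads outside genes. CPM uses TMM-adjusted library sizes, and exon lengths and coordinates are from GENCODE M21 (GRCm38). SE comes from the test statistic. The 95% intervals of log2 fold changes and slopes take that SE with the normal distribution, so they are narrower than the F tests would give. Counting intervals (95%) and floors (3 counts) cover counting error only. Alternatives were DESeq2 1.42.0, limma 3.58.1 voom, RLE factors, no filter, other terms and subsets of libraries. The fits were also run on simulated counts with 1 added effect per fit and, apart from depth, the same mean in every library. Such counts cannot show how the fits behave where group, set and share of reads outside genes go together.

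The members, gene lists and tests were chosen with earlier results of these data known. The genes named are called members, the 3 lowest p per direction with a mean of at least 1 CPM in each comparison of groups, the 8 highest levels per length, up to 3 lowest p per direction from each other list, and Drd2, Drd1 and Cdh5. Others are named as contrasts within a family and were chosen after their values were seen.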

Additional observations from a re-analysis of the deposited data

Results flagged for a closer look

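Of 90 sets of values (30 members in the 3 groups of 4 to 10 libraries), 8 held a library far from the others of its group by Dixon's test at the 95% level. That level assumes normal values, while the test was run on CPM without logs, and all 8 were flagged as the highest. The sets share libraries and are not independent, so the number expected by chance is not known. Nonescalating withdrawal replicate 1 of set A, with 60.7% of reads outside genes, was the highest of its 9 libraries for 5 members: Efna1 at 7.90 CPM, Epha2 at 19.9 CPM, Ephb4 at 107.7 CPM, Sema4c at 29.8 CPM and Sema7a at 246.6 CPM. The next highest values were 3.89, 6.62, 28.8, 11.9 and 144.2 CPM. Nonescalating withdrawal replicate 2 of set A was the highest for Epha6 at 136.2 CPM, with 75.4 CPM next, and for Plxnb2, a receptor of class 4 semaphorins, at 151.9 CPM, with 69.5 CPM next. Nonescalating replicate 2 of set A, the library with the lowest share of reads outside genes at 21.2%, was the highest of 4 for Efnb2 at 244.8 CPM, with 157.9 CPM next.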

How the results depend on the processing

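The count of members called between immunopurified and input libraries was 6. It was 16 with DESeq2 and 14 with the share of reads outside genes as a covariate, which was chosen after seeing the data, and it ran from 1 to 8 when 1 library was left out, with 1 without the nonescalating input. With replicate numbers as a block it was 0, and Sema7a had an adjusted p of 0.0502. Same-numbered libraries did not deviate together (25 pairs, median correlation -0.18, against 0.06 for 172 other pairs), all inputs carry number 1, and the block changed no call in the comparisons of groups. Over all genes the counts were 2907 with DESeq2, 173 with the block and 1796 with the covariate, against 1152. With limma voom 2 members were called higher and 5 lower, and Ephb4 and Epha2 were not among them. For the slope the count of 44 became 29 in set A alone, 11 in set B alone and 17 without the libraries over 50% (5239, 1315 and 1937 of all genes, against 8087), the values for set B and for those libraries chosen after seeing the data. No member was called in the comparisons of groups under any setting tried. Of the members named in them, signs turned for Plxnb2 in saline withdrawal against saline without a set term (-0.028), for Epha4 in nonescalating withdrawal against nonescalating without the libraries over 50% (0.0078), for Plxnc1 in nonescalating against saline without nonescalating replicate 2 (-0.0073), and for Unc5d without escalating replicate 1 (-0.0597 against saline and -0.113 against nonescalating). The slope of Sema7a turned to -0.0164 without the libraries over 50%. The cause of these changes was not tested. Depth limits what the inputs show of Epha1, Epha2 and Efna1, with 0, 2 and 16 counts over the 3 inputs.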
